A study of Homo sapiens with 8 samples.

Results

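The Polycomb genes described here are 9 genes that encode subunits of the Polycomb repressive complexes PRC1 and PRC2: EZH1, EZH2, SUZ12 and EED of PRC2, and BMI1, CBX2, CBX6, CBX7 and CBX8 of PRC1. They were taken from the deposited gene table by an exact match of symbol, which found 1 row for each of the 9 symbols among 60622 genes. The RNA-seq libraries, 8 in all, were made from poly(A) RNA with a dUTP-marked second strand, from the human prostate cancer lines LNCaP and PC3, which were derived from a lymph node and a bone metastasis. Each line was studied as a control and with the microRNA miR-375 overexpressed, with 2 libraries in each of the 4 groups. LNCaP was grown in 10% and PC3 in 20% fetal bovine serum, both in RPMI-1640, so line and serum cannot be told apart. The labels state neither the vector or mimic used to raise miR-375, nor the duration, nor the treatment of the control cells. Separate cultures are not named either, so the p-values rest on a spread between libraries that may be technical.

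Polycomb proteins keep genes silent through marks on histones. In PRC2, the methyltransferase EZH2, or its relative EZH1, methylates histone H3 at lysine 27 and needs SUZ12 and EED to be active. In canonical PRC1, a CBX protein binds that mark through its chromodomain, and BMI1 partners the RING ubiquitin ligase that marks histone H2A. EZH2 is bound up with cell division and is often abundant in advanced prostate cancer, whereas EZH1 is typical of non-dividing cells.

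The manipulated microRNA is printed first, since its seed (bases 2 to 8, in capitals) fixes which messages it can pair with. Its mature sequence (RefSeq, GRCh38.p14, chr2:219001648-219001669, minus strand) is
hsa-miR-375-3p: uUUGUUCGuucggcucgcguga
The sites searched in 3′ UTRs of GENCODE 29 were CGAACAAA (8mer), CGAACAA and GAACAAA (7mers) and GAACAA (6mer), on the sense strand. Only protein-coding transcripts that GENCODE tags as basic were searched. None of the 9 members had a 7mer or 8mer in those 3′ UTRs, against 18.1% of the 14894 tested genes with a 3′ UTR. EZH1 held a 6mer, at chr17:42701061-42701066 (GRCh38, minus strand) in its 3′ UTR, and 34.0% of tested genes held a site of some kind. Its site is shown with the match in capitals, being the only one found among the members.
EZH1 site: tgccgggctggctggGAACAAggagcagta
A match is a description of the letters and not evidence of binding. In LNCaP the median log2 fold change was −0.11 over the 2692 tested genes with a 7mer or 8mer and 0.00 over the 12202 without. In PC3 the corresponding medians were −0.06 and 0.03.

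Library totals ran from 33973861 to 41890528 counts, and all 9 members passed the low-count filter, the smallest member count in any library being 386 (CBX7). LNCaP markers (KLK3, KLK2, TMPRSS2 and FOLH1) summed to 4051 to 4102 CPM in the LNCaP controls and 34.0 to 40.8 CPM in the PC3 controls. PC3 markers (FOSL1, CAV1, CD44, VIM, AXL and MET) summed to 34.7 to 41.8 and 2425 to 2440 CPM in the same groups. With miR-375 the LNCaP markers summed to 3002 to 3103 CPM in LNCaP, and the PC3 markers to 1443 to 1457 CPM in PC3, where all 6 fell (median −0.82). The PC3 call of CD44 ended with total-count scaling (edgeR adjusted p = 0.128) and with DESeq2 (adjusted p = 0.659). Of the 4 LNCaP markers, 1 rose and 2 fell in LNCaP. KLK3 held most of that sum, with means of 2786 CPM in the controls and 1829 with miR-375, whereas FOLH1 went from 772 to 853. In PC3, KLK3 and KLK2 were at 0 CPM and TMPRSS2 fell. FOLH1 rose there (3.99 on the log2 scale) from a low level, 0.25 CPM in the first control. Of the 6 PC3 markers, 2 rose and 3 fell in LNCaP. CPM here is the count scaled to library size, the sizes being adjusted by TMM. Among 10 markers of leukocytes, endothelium and fibroblasts, the sum was 47.6 to 54.9 CPM in the LNCaP controls and 54.9 to 61.3 with miR-375. In PC3 that sum was 187 to 192 CPM in the controls and 404 to 424 with miR-375. Most of it was the collagen gene COL1A1, with group means of 139 and 373 CPM in PC3, while the leukocyte gene PTPRC was at or under 0.23 CPM in every group mean. CD3E had no counts in either LNCaP group or with miR-375 in PC3, CDH5 none with miR-375 in LNCaP, and DCN none in the PC3 controls. The part of these markers in the results below was not tested.

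With miR-375, the PRC2 genes EZH2, SUZ12 and EED and the PRC1 gene BMI1 fell in both lines, and CBX6 rose in both. CBX7 rose in LNCaP only by the test, whereas EZH1 and CBX2 rose in PC3 and did not pass in LNCaP. CBX8 passed in neither line. Rose and fell are used where the Benjamini-Hochberg adjusted p of edgeR's quasi-likelihood test, over all 21066 tested genes, was under 0.05. In LNCaP 6 of the 9 members passed (2 higher, 4 lower), against 32.6% of all tested genes (13.9% higher and 18.7% lower). In PC3 7 of 9 passed (3 higher, 4 lower), against 43.0% of all tested genes (22.2% higher and 20.8% lower). A call in the same direction in both lines was made for 5 members (4 lower, 1 higher), against 17.6% of tested genes (10.5% lower and 7.10% higher). The effect differed between the lines for 3 members, all lower in LNCaP, against 26.5% of tested genes (15.6% lower and 10.9% higher). Control and miR-375 libraries did not overlap for 8 of 9 members in LNCaP and 8 of 9 in PC3, against 62.9% and 66.8% of tested genes. The members' median log2 fold change was −0.02 in LNCaP and 0.12 in PC3, beside 0.00 and 0.02 over all tested genes. The members were chosen with earlier results of these data known, and nothing is claimed from these counts for the family as such. In bulk RNA, fewer cells of a type and less RNA per cell cannot be told apart.

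**Figure D1:**
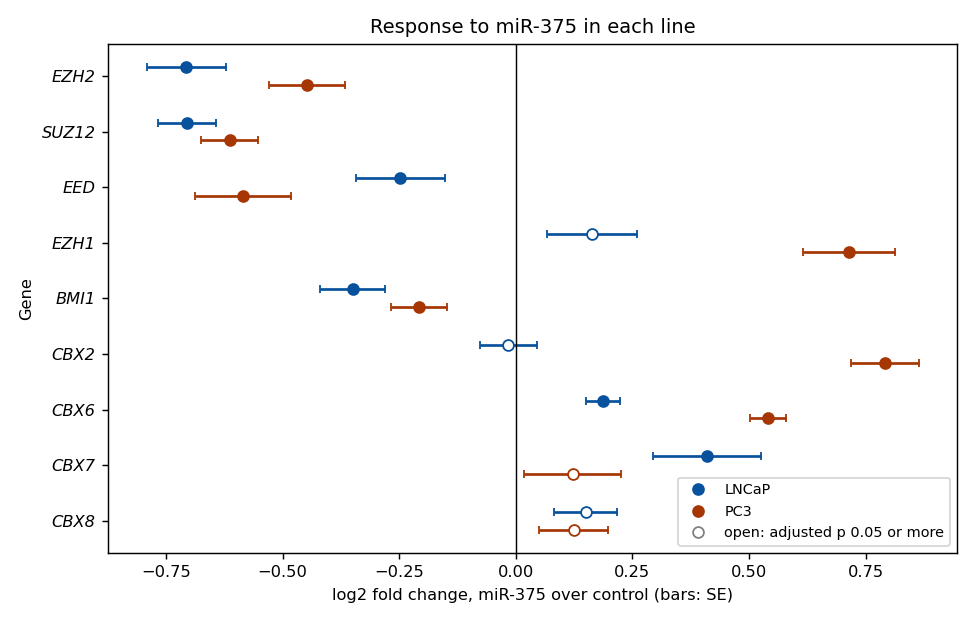
Log2 fold change of miR-375 over control for the 9 members (x axis, bars are SE, 2 libraries per group), in LNCaP (blue) and PC3 (brown). Open circles did not pass. EZH2, SUZ12, EED and BMI1 lie left of 0 in both lines, and CBX2 reaches 0.79 in PC3 while its LNCaP value, near 0, did not pass.

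EZH2, the main PRC2 methyltransferase of dividing cells (chr7:148807383-148884321, GRCh38, minus strand), stood at 34.0 and 32.3 CPM in the LNCaP controls and at 20.0 and 20.6 CPM with miR-375. The PC3 controls had 31.9 and 34.3 CPM and the PC3 miR-375 libraries 23.5 and 25.1 CPM. In each line both miR-375 libraries were below both controls. EZH2 fell 1.63-fold in LNCaP (log2 fold change −0.71 ± 0.08 SE, edgeR adjusted p = 1.19e-08) and 1.36-fold in PC3 (−0.45 ± 0.08, edgeR adjusted p = 1.86e-05). The difference of the changes, −0.26 ± 0.12, did not pass (edgeR adjusted p = 0.105).

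EZH1, the alternative methyltransferase (chr17:42700275-42745049, minus strand), stood at 21.4 and 21.3 CPM in the LNCaP controls and 22.9 and 24.9 CPM with miR-375. PC3 had 15.3 and 13.4 CPM in the controls and 22.3 and 24.7 CPM with miR-375. The miR-375 libraries were above the controls in both lines, but the LNCaP change of 0.16 ± 0.10 did not pass (edgeR adjusted p = 0.219). In PC3 EZH1 rose 1.64-fold (0.71 ± 0.10, edgeR adjusted p = 1.42e-07). The LNCaP change was smaller than the PC3 change by 0.55 ± 0.14 on the log2 scale (interaction, edgeR adjusted p = 0.00227). The 2 lines, 1.49-fold apart in the controls, had nearly the same EZH1 level with miR-375 (23.9 ± 1.43 and 23.5 ± 1.69 CPM, SD, n = 2).

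Since EZH2 and EZH1 are alternatives in PRC2, their levels were also compared per length, as CPM per kilobase of GENCODE 29 exon. Length here is all exon bases annotated for a gene (4522 for EZH2, 6988 for EZH1), which may exceed those of the transcripts present. In plain CPM, EZH1 was above EZH2 in both LNCaP miR-375 libraries (22.9 and 24.9 against 20.0 and 20.6). In the PC3 miR-375 libraries EZH1 was below EZH2 (22.3 and 24.7 against 23.5 and 25.1). Per length, EZH2 exceeded EZH1 by 2.46 and 2.34 times in the LNCaP controls and by 1.35 and 1.28 times with miR-375. In PC3 the ratio was 3.23 and 3.97 in the controls and 1.63 and 1.57 with miR-375. Every miR-375 library thus had a lower ratio than every control of either line. EZH2 made up 70.1% to 71.1% of the summed pair in the LNCaP controls and 56.1% to 57.5% with miR-375, and 76.4% to 79.9% and 61.1% to 61.9% in PC3. No model was fitted to the ratio, and an exact two-sided test of 2 libraries against 2 cannot give a p under 0.333.

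SUZ12, a core subunit that holds PRC2 together (chr17:31937018-32001045, plus strand), stood at 82.4 and 93.0 CPM in the LNCaP controls and 53.0 and 54.6 with miR-375. In PC3 it stood at 81.0 and 85.3 CPM in the controls and 57.8 and 50.9 with miR-375. Both lines thus went from similar control levels to similar miR-375 levels, with no overlap. SUZ12 fell 1.63-fold in LNCaP (−0.70 ± 0.06, edgeR adjusted p = 9.63e-12) and 1.53-fold in PC3 (−0.61 ± 0.06, edgeR adjusted p = 1.02e-10). A partial copy of the gene, SUZ12P1, is listed in the same table at 3.22 to 8.36 CPM, and the rule by which reads were shared between the copies is not stated in the labels.

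EED, the subunit that reads trimethylated H3 lysine 27 (chr11:86244544-86278813, plus strand), stood at 29.4 and 26.8 CPM in the LNCaP controls and 23.6 and 23.8 with miR-375. In PC3 it went from 17.3 and 17.4 CPM to 10.8 and 12.4. No miR-375 library reached a control of its line. EED fell in PC3 (−0.59 ± 0.10, edgeR adjusted p = 9.91e-06). The LNCaP change was −0.25 ± 0.10, with an edgeR adjusted p of 0.0428 close to the threshold. That LNCaP call ended in 8 of 15 alternatives, including the omission of any 1 of the 4 LNCaP libraries (edgeR adjusted p from 0.110 to 0.526) and DESeq2 (0.155), and without the first control the change was −0.13. The difference between the lines, 0.34 ± 0.14, did not pass (edgeR adjusted p = 0.0728), but it passed in 5 of 14 alternatives (0.0142 to 0.0383), among them the omission of the first LNCaP control (0.0238) or the second PC3 miR-375 library (0.0318).

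**Figure D2:**
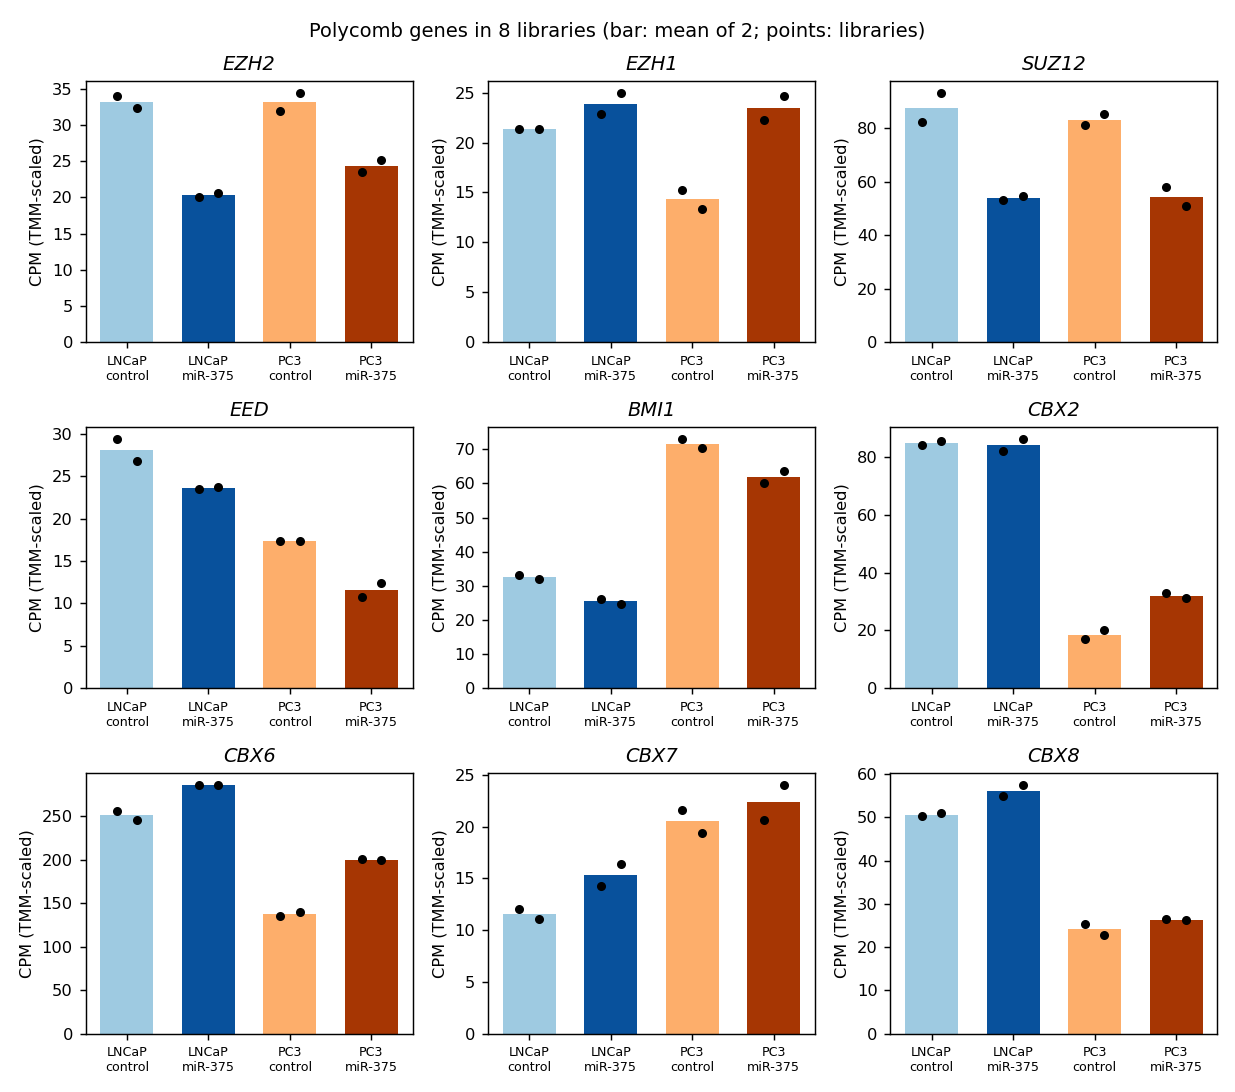
CPM of each member (y axes start at 0 and differ between panels) in the 4 groups. Bars are means of 2 libraries and points the libraries. EZH2, SUZ12, EED and BMI1 are lower with miR-375 in both lines, and BMI1 and CBX7 are the members with higher control levels in PC3 than in LNCaP.

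BMI1, the RING-partner subunit of canonical PRC1 (chr10:22321211-22331484, plus strand), stood at 33.0 and 31.9 CPM in the LNCaP controls and 26.2 and 24.8 with miR-375. In PC3 it stood at 73.0 and 70.3 CPM in the controls and 60.2 and 63.7 with miR-375. The groups did not overlap in either line, and every PC3 library exceeded every LNCaP library. BMI1 fell 1.27-fold in LNCaP (−0.35 ± 0.07, edgeR adjusted p = 1.01e-04) and 1.16-fold in PC3 (−0.21 ± 0.06, edgeR adjusted p = 0.00449). The PC3 call ended without the first PC3 control (edgeR adjusted p = 0.0666), without the first PC3 miR-375 library (0.0852) and with total-count scaling (0.0751). In GENCODE 29, 23.3% of BMI1 exon bases are shared with the readthrough gene COMMD3-BMI1, which is listed at 0 counts in all 8 libraries. How reads in shared bases were assigned is not stated, so the 0 counts do not show that the readthrough transcript is absent.

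The CBX genes, which encode the subunits that read the PRC2 mark, had no member that fell in either line. CBX2 (chr17:79778132-79787983, plus strand) stood at 84.4 and 85.8 CPM in the LNCaP controls and 82.1 and 86.2 with miR-375, with overlapping groups. In PC3 it went from 16.9 and 20.0 CPM to 32.8 and 31.1, a 1.73-fold rise (0.79 ± 0.07, edgeR adjusted p = 1.28e-11). The LNCaP change was −0.02 ± 0.06 (edgeR adjusted p = 0.904), and the effects differed between the lines by −0.81 ± 0.09 (interaction, edgeR adjusted p = 1.55e-08). Even after the rise, CBX2 in PC3 stayed below all LNCaP libraries.

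CBX6, the CBX member with the highest counts (chr22:38861450-38872314, minus strand), stood at 256 and 246 CPM in the LNCaP controls and 285 and 286 with miR-375. In PC3 it stood at 136 and 139 CPM in the controls and 200.3 and 199.7 with miR-375. Libraries of a group lay close together and the groups did not overlap. CBX6 rose 1.14-fold in LNCaP (0.19 ± 0.04, edgeR adjusted p = 1.00e-04) and 1.45-fold in PC3 (0.54 ± 0.04, edgeR adjusted p = 1.45e-14). The LNCaP rise was smaller by 0.35 ± 0.05 (interaction, edgeR adjusted p = 2.14e-06).

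CBX7, the CBX member with the lowest mean per kilobase of exon in each group (chr22:39120167-39152674, minus strand), stood at 12.1 and 11.1 CPM in the LNCaP controls and 14.3 and 16.4 with miR-375. PC3 had 21.6 and 19.4 CPM in the controls and 20.7 and 24.0 with miR-375, so only the LNCaP groups were apart. CBX7 rose 1.33-fold in LNCaP (0.41 ± 0.12, edgeR adjusted p = 0.00489), a call lost when the second miR-375 library of LNCaP was left out (0.0541). The PC3 change was 0.12 ± 0.10 (edgeR adjusted p = 0.377), and the difference between the lines, 0.29 ± 0.16, did not pass (0.189). That difference passed in 1 of 14 alternatives, over which it ran from 0.19 to 0.46. An antisense gene, AL031846.2, shares 17.9% of CBX7 exon bases and had 10 to 41 counts per library, and reads of the pair cannot be told apart if strand was not used in counting.

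CBX8 (chr17:79792132-79801683, minus strand) lies 4148 bases from CBX2 and stood at 50.3 and 51.0 CPM in the LNCaP controls and 54.9 and 57.5 with miR-375. In PC3 it stood at 25.4 and 22.9 CPM in the controls and 26.5 and 26.2 with miR-375. The miR-375 libraries were above the controls in both lines by less than the test requires, at 0.15 ± 0.07 in LNCaP (edgeR adjusted p = 0.0908) and 0.12 ± 0.07 in PC3 (0.185). The LNCaP value passed with LNCaP fitted alone (0.0364), with halved counts (0.00787), without the low-count filter (0.0135) and without the first LNCaP miR-375 library (0.0430).

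Scaling bears on the small LNCaP changes, since plain total counts, used instead of TMM, moved the median of all genes there from 0.00 to 0.12. Under total counts the LNCaP value of CBX2 became 0.11 without passing (edgeR adjusted p = 0.193), EED lost its call (0.345), and EZH1 (0.0200) and CBX8 (0.00152) passed as higher. The LNCaP falls of EZH2, SUZ12 and BMI1 and the rises of CBX6 and CBX7 kept their calls. In PC3 total counts ended the call of BMI1, as given above, and CBX8 passed as higher (0.0263).

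Per length, the 4 CBX members differed widely in level. Their summed level was 59.4 to 60.4 CPM per kilobase in the LNCaP controls and 65.1 to 66.7 with miR-375, against 28.87 to 28.97 and 39.83 to 39.85 in PC3. CBX6 led in every library, with 51.5% to 62.6% of this sum. CBX2 made up 24.6% and 25.4% in the LNCaP controls and 22.2% and 22.7% with miR-375, against 10.3% and 12.1% in the PC3 controls and 14.5% and 13.7% with miR-375. CBX7 took 2.49% to 3.29% in LNCaP and 6.95% to 10.05% in PC3. CBX6 took a larger share with miR-375 in both lines, at 54.6% and 53.3% against 52.7% and 51.5% in LNCaP and 62.6% and 62.4% against 58.5% and 59.9% in PC3. The CBX8 share was 20.02% to 20.7% in LNCaP, with overlapping groups, and in PC3 it was 21.1% and 19.0% in the controls and 15.95% and 15.79% with miR-375.

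**Figure D3:**
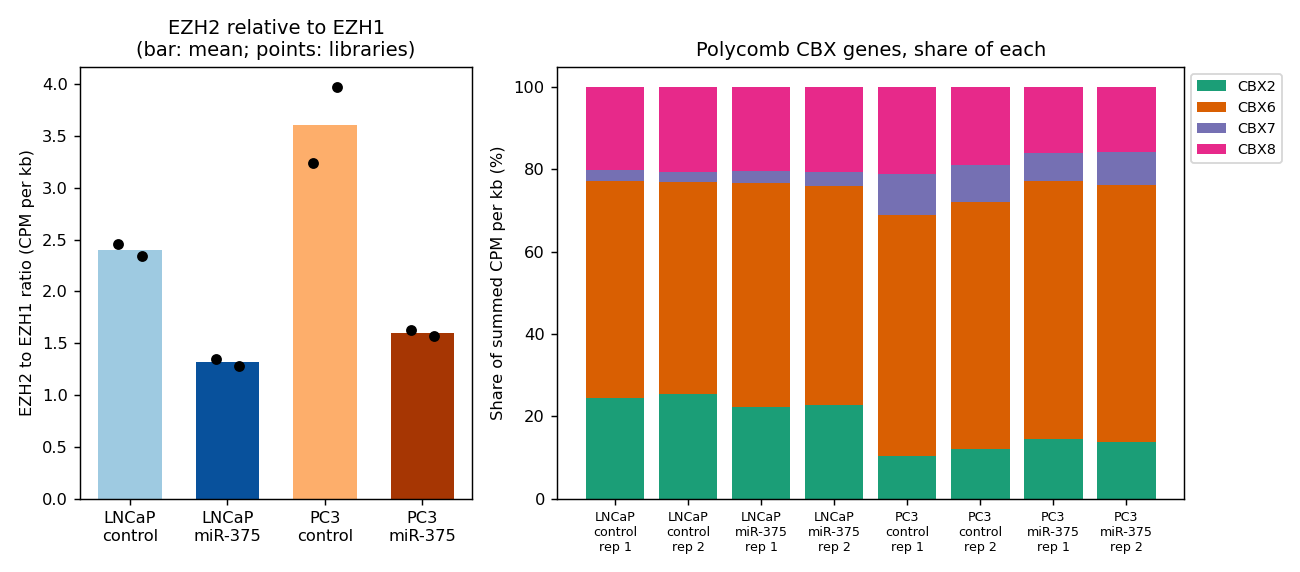
Left, ratio of EZH2 to EZH1 in CPM per kilobase of exon, with bars for the mean of 2 libraries and points for libraries. Right, share of each of the 4 CBX members in their summed CPM per kilobase, for each of the 8 libraries. The ratio is 1.28 to 1.63 with miR-375 and 2.34 to 3.97 in the controls, and CBX6 holds the largest share in every library.

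Between the controls, 7 of the 9 members differed (2 higher and 5 lower in PC3), against 80.4% of all tested genes (39.2% higher and 41.2% lower). The libraries did not overlap for those 7 members, against 89.8% of tested genes. These values use the same control libraries as the miR-375 comparisons. CBX2 was 4.61-fold lower in PC3 (−2.20 ± 0.07), CBX8 2.10-fold (−1.07 ± 0.07) and CBX6 1.82-fold (−0.87 ± 0.04). EED (−0.69 ± 0.10) and EZH1 (−0.58 ± 0.10) were lower as well. BMI1 was 2.21-fold higher in PC3 (1.14 ± 0.06) and CBX7 1.78-fold (0.83 ± 0.11). The largest edgeR adjusted p among these 7 was 3.38e-06. EZH2, with a difference of −0.001 ± 0.08 (edgeR adjusted p = 0.991), and SUZ12, with −0.08 ± 0.06 (0.238), did not pass.

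In CPM per kilobase, the order of the members in the LNCaP controls was CBX6 (31.2 ± 0.89, SD, n = 2), CBX2 (15.0 ± 0.18), SUZ12 (13.4 ± 1.14), CBX8 (12.2 ± 0.11), BMI1 (7.58 ± 0.18), EZH2 (7.33 ± 0.26), EED (4.01 ± 0.26), EZH1 (3.06 ± 0.003) and CBX7 (1.55 ± 0.10). BMI1 and EZH2 overlapped between libraries there, and the ranges of the other neighbours did not. With miR-375 the LNCaP order ran CBX6, CBX2, CBX8, SUZ12, BMI1, EZH2, EZH1, EED and CBX7, so SUZ12 moved below CBX8 and EED below EZH1, the latter pair overlapping. The PC3 control order was CBX6 (17.1 ± 0.34), BMI1 (16.7 ± 0.45), SUZ12 (12.7 ± 0.46), EZH2 (7.33 ± 0.38), CBX8 (5.80 ± 0.43), CBX2 (3.25 ± 0.38), CBX7 (2.75 ± 0.21), EED (2.48 ± 0.004) and EZH1 (2.05 ± 0.19), with CBX6 and BMI1 overlapping. With miR-375 EZH2 dropped below CBX8 and CBX2 in PC3, where CBX2 and EZH2 overlapped, and EED became the lowest at 1.65 ± 0.16. The order between genes rests on the annotated exon lengths, which may exceed those of the transcripts present.

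Other genes of the pathway were counted from lists written for this purpose. For this list and those below, the shares over all tested genes were 13.9% higher and 18.7% lower in LNCaP. In PC3 they were 22.2% higher and 20.8% lower. Among 9 tested further PRC2 genes, 1 rose and 4 fell in LNCaP (median −0.12) and 3 rose and 5 fell in PC3 (median −0.19). The histone-binding subunits RBBP4 (−0.37 in LNCaP and −0.19 in PC3) and RBBP7 (−0.42 and −0.50) and the accessory subunit AEBP2 (−0.55 and −0.44) fell in both lines. EPOP, an accessory subunit, fell in LNCaP from 54.1 and 52.4 to 30.0 and 30.3 CPM (−0.82) and rose in PC3 from 23.8 and 23.7 to 31.1 and 27.8 CPM (0.31). PHF19, a Polycomb-like subunit, fell in PC3 from 47.9 and 48.3 to 22.7 and 25.0 CPM (−1.01) and stood at −0.12 in LNCaP without passing. PHF1, its relative, rose in LNCaP (0.48) and stood at −0.04 in PC3. The changes of EPOP, PHF19 and PHF1 differed between the lines by the interaction test (edgeR adjusted p from 1.26e-10 to 1.71e-04).

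Of 23 further PRC1 genes, including those of variant complexes, 3 rose and 6 fell in LNCaP (median −0.06), and 9 rose and 5 fell in PC3 (median 0.05). KDM2B, the subunit that brings variant PRC1 to CpG islands, rose in both (0.47 in each line), as did RYBP (0.24 and 0.43), a variant PRC1 subunit, and PCGF3 (0.16 and 0.48), a BMI1 relative. BCOR (−0.31 and 0.43) and MGA (−0.27 and 0.34), also of variant complexes, fell in LNCaP and rose in PC3. SCML2 fell in LNCaP (−0.38) and stood at 0.11 in PC3. With total-count scaling the LNCaP median of this list became 0.06, with 7 higher and 3 lower. The LNCaP call of MGA ended there (edgeR adjusted p = 0.0695), without the second LNCaP control (0.0954) and without the second LNCaP miR-375 library (0.0867), and that of SCML2 without either of those 2 libraries (0.0864 and 0.204).

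The PR-DUB complex removes the PRC1 mark from histone H2A. Of its 10 listed genes 1 rose and 5 fell in LNCaP (median −0.12), and 4 rose and 1 fell in PC3 (median 0.16). MBD5 rose (0.37 and 0.35) and ASXL1 fell (−0.20 and −0.22) in both lines. OGT (−0.23 and 0.26) and FOXK1 (−0.16 and 0.41) fell in LNCaP and rose in PC3, ASXL2 (−0.39) and HCFC1 (−0.35) fell in LNCaP, and MBD6 rose in PC3 (0.42). With total-count scaling the LNCaP list gave 2 higher and 2 lower, and the calls of FOXK1 (edgeR adjusted p = 0.617), ASXL1 (0.249) and OGT (0.0532) ended. The LNCaP call of FOXK1 also ended with DESeq2 (0.104), with halved counts (0.116), without the low-count filter (0.326) and on leaving out whichever LNCaP library (0.0879 to 0.419). That of ASXL1 ended without the second LNCaP control (0.199) or the first LNCaP miR-375 library (0.244), and that of OGT without the latter (0.0591). Of the H3 lysine 27 demethylase genes, KDM6B rose in LNCaP from 89.4 and 87.4 to 113 and 122 CPM (0.41) and in PC3 from 30.1 and 29.4 to 68.7 and 64.6 CPM (1.17). KDM6A fell in LNCaP (−0.29) and stood at −0.03 in PC3.

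The chromobox family also holds CBX1, CBX3 and CBX5, which encode the heterochromatin proteins HP1 and not Polycomb subunits, and all 3 fell in both lines. CBX3 fell 3.60-fold in LNCaP, from 638 and 609 to 176 and 171 CPM (−1.85 ± 0.04, edgeR adjusted p = 1.34e-29). In PC3 it fell 2.99-fold, from 268 and 270 to 91.0 and 88.4 CPM (−1.58 ± 0.04, edgeR adjusted p = 3.87e-28). CBX3 shares 7.9% of its exon bases with HNRNPA2B1 on the opposite strand. CBX5 fell by 0.71 and 1.16 on the log2 scale and CBX1 by 0.22 and 0.23. The LNCaP call of CBX1 ended with total-count scaling (edgeR adjusted p = 0.0525). Within 1 gene family, therefore, the HP1 genes were lower in both lines, and none of CBX2, CBX6, CBX7 and CBX8 was called lower in either.

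Genes reported elsewhere as repressed by Polycomb were mixed. Of 18 tested, 4 rose and 3 fell in LNCaP (median −0.01) and 8 rose and 2 fell in PC3 (median 0.07). Over all tested genes 32.6% were called in LNCaP and 43.0% in PC3, and nothing is claimed from these counts for Polycomb targets. CDH1, the E-cadherin gene, rose in PC3 from 4.19 and 3.50 to 17.7 and 15.2 CPM (2.09), and in LNCaP, where it stood at 391 and 402 CPM in the controls, by 0.11. HOXA10 (1.10) and VASH1 (1.00) rose in PC3, and BMPR1B, a bone morphogenetic protein receptor gene, fell there from 33.1 and 34.0 to 19.3 and 18.1 CPM (−0.85). In LNCaP CDKN2B rose (0.88) from 0.967 and 0.945 CPM and MSMB (1.07) from 2.18 and 1.72 CPM, SLIT2 fell (−1.17) from 0.604 and 0.516 CPM, and GATA6 fell in both lines (−0.48 and −0.43). In PC3, where SLIT2 was far more abundant, it rose from 86.8 and 82.4 to 121 and 118 CPM (0.50). Several of the LNCaP calls were not stable. The LNCaP calls of CDKN2B, SLIT2 and GATA6 ended with limma-voom (adjusted p = 0.158, 0.154 and 0.0735). Leaving out the second miR-375 library of LNCaP also ended the CDKN2B call (0.0574). The SLIT2 call ended with halved counts (0.108), with LNCaP fitted alone (0.121), and without the first control (0.123) or the first miR-375 library (0.149) of LNCaP. The MSMB call ended without the second LNCaP control (0.117) or either LNCaP miR-375 library (0.112 and 0.0515). GATA6 lost its LNCaP call with total counts (0.0807), with DESeq2 (0.0544), and without the first control (0.264) or the second miR-375 library (0.407), and its PC3 call without the second library of either PC3 group (0.05001 and 0.154).

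All 20 listed E2F and proliferation genes fell in both lines, with medians of −1.37 in LNCaP and −1.19 in PC3. The replication genes CDC6 (−2.06 and −1.88), MCM5 (−1.78 and −1.85) and MCM3 (−1.61 and −1.49), the thymidylate synthase gene TYMS (−1.81 and −1.69) and the methylation maintenance gene UHRF1 (−1.95 and −1.43) fell furthest among those named by the rule. The list ran from −2.06 to −0.89 in LNCaP and from −1.88 to −0.58 in PC3, where the members that fell ran from −0.71 to −0.25 and from −0.61 to −0.21. The part of this shift in the PRC2 values was not tested.

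**Figure D4:**
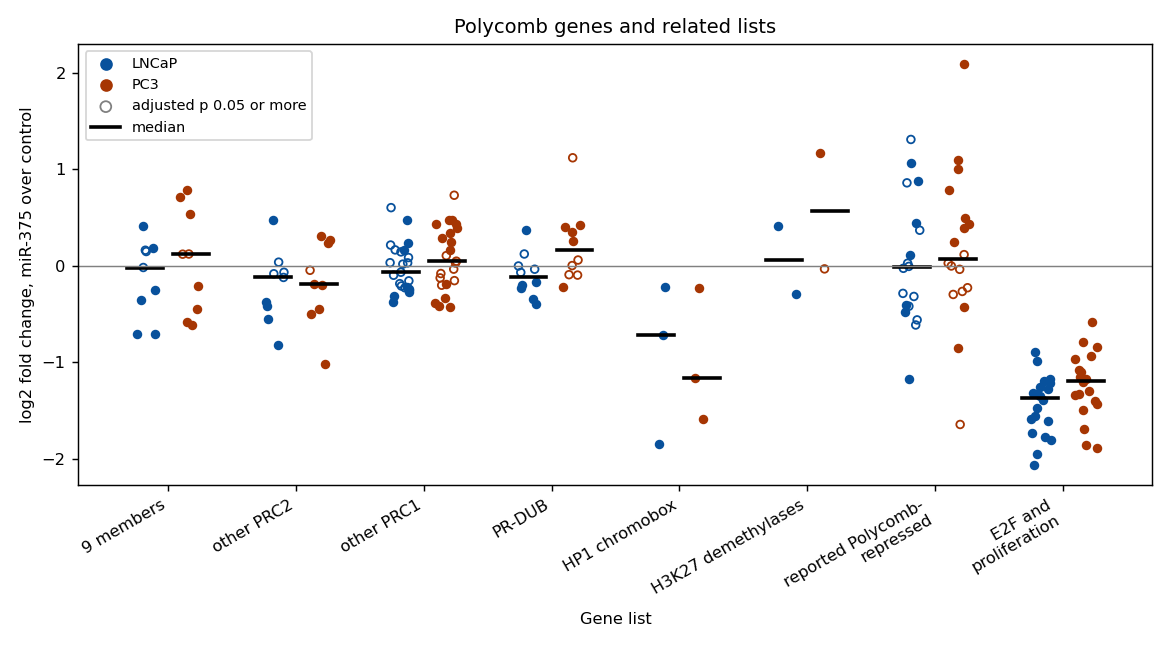
Log2 fold change of miR-375 over control (y axis) for each gene of each list (x axis), in LNCaP (blue) and PC3 (brown). Filled points passed, open points did not, and black lines are medians. The 9 members spread from −0.71 to 0.79, whereas all 20 proliferation genes lie below 0.

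Because EZH2 and SUZ12 fell beside E2F genes, the promoters were searched for E2F-type motifs, a choice made after the values and the promoter sequences had been seen. The letters searched were TTTGGCGC, TTTCCCGC, TTTCGCGC and TTTGCCGC, on both strands, in windows of 250 bases before to 50 after each start (RefSeq, GRCh38.p14). Of 35116 windows, 3.3% held at least 1. That share is per window, whereas members are counted by gene, EZH2 and BMI1 with 2 windows each, so the 2 are not comparable. Promoters of 7 members were matched, CBX2 and CBX8 having no entry, and 3 members held a motif: EZH2 at 2 bases after the start in 1 of its 2 windows, SUZ12 189 bases before it, and EZH1 115 bases before it on the reverse strand. The windows below (motif in capitals) are those of EZH2 and SUZ12, which fell, and of EZH1, which did not fall.
EZH2 (chr7:148884272-148884301, minus strand): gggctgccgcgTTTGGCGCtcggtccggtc
SUZ12 (chr17:31936807-31936836, plus strand): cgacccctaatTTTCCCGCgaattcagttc
EZH1 (chr17:42745137-42745166, minus strand): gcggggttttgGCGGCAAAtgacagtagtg
EZH1 rose in PC3 and did not pass in LNCaP. No such letters were found in the windows of EED and BMI1, which also fell in both lines, nor in those of CBX6 and CBX7.

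For each member, the genes with the most similar profile over the 8 libraries were found among 11811 other genes with a mean of at least 5 CPM, by the root mean square difference of mean-centred log2 CPM. The nearest to EZH2 were PRRG1 (0.05), IMMT (0.07) and TUBB (0.07). RPA2, PMM1 and LIN54 were nearest to SUZ12 (all 0.08), and WRAP53 (0.05), TARBP2 (0.06) and PHAX (0.07) to EED. TSPAN13 (0.07), CITED4 (0.08) and FRAT1 (0.09) came nearest to EZH1. For BMI1 they were KBTBD2 (0.05), DNAJC10 (0.06) and PARG (0.06). CBX2 was closest to ARG2 (0.06), WASF3 (0.09) and TIGD1 (0.10), and CBX6 to THUMPD3-AS1 (0.04), SYNGR2 (0.05) and SIAE (0.05). CDKN2D (0.07), TRIM5 (0.07) and DNAJB9 (0.09) were nearest to CBX7, and NDUFA8 (0.04), NDUFS5 (0.05) and AHSA1 (0.05) to CBX8. None of the nearest genes was another member, and each likeness is a description over these 8 libraries.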

How the data were processed

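The authors deposited 1 table of whole-number counts per gene covering the 8 libraries, without normalization. The submitters' processing notes name hg38 and the programs STAR 2.7.1a, featureCounts, fastp and DESeq2. Settings, annotation and use of strand: not given in the sources used here. Of 60625 lines 3 were broken and left out. From 68.1% to 70.3% of counts between 1 and 20 per library were even, and whether single reads or pairs were counted is not stated, hence the alternative with halved counts. Groups came from the sample titles. The 21066 genes passing filterByExpr were fitted in 1 model of 4 groups (4 residual degrees of freedom) with edgeR 4.0.16 (TMM, robust glmQLFit, glmQLFTest) in R 4.3.3, with Benjamini-Hochberg adjustment, called under 0.05. SE is the log2 fold change divided by the square root of F. The script was tested on simulated data. Gene positions and exon lengths are from GENCODE 29 (GRCh38), which holds 58516 of the table's gene IDs, and may differ from the authors' annotation. All 9 members are named, and of each related list up to 4 called genes per line with the largest change and genes called in both lines for lists of 10 or fewer. Some listed genes are not reported here and were left out of lists, sums and figures. The members and lists were chosen with earlier results of these data known. Alternatives were DESeq2 1.42.0, limma-voom 3.58.1, total-count scaling, no filter, each line alone, a replicate block, halved counts and leaving out each library.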

Additional observations from a re-analysis of the deposited data

Results flagged for a closer look

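The effect of miR-375 differed between the lines by the interaction test for 3 of the 9 members, against 26.5% of all tested genes. Values are the LNCaP log2 fold change minus the PC3 log2 fold change, called at edgeR adjusted p under 0.05. The related genes named that also passed are given below. Those genes were named by their calls and changes within each line, so that share is no background for them. Among the members the difference was −0.55 for EZH1, −0.81 for CBX2 and −0.35 for CBX6, and all 3 stayed called in every alternative that was run for this comparison. Of the further PRC2 genes, RBBP4 differed by −0.18, PHF1 by 0.52, PHF19 by 0.89 and EPOP by −1.13. In PRC1 the values were −0.31 for PCGF3, −0.48 for SCML2, −0.74 for BCOR and −0.61 for MGA. PR-DUB genes gave −0.30 for ASXL2, −0.57 for FOXK1, −0.30 for MBD6, −0.41 for HCFC1 and −0.49 for OGT. The HP1 genes CBX3 and CBX5 gave −0.27 and 0.45, and the demethylase genes KDM6A and KDM6B −0.26 and −0.76. Reported Polycomb-repressed genes gave 0.92 for CDKN2B, 0.84 for BMPR1B, −1.67 for SLIT2, −1.98 for CDH1, −0.63 for VASH1 and −1.38 for HOXA10. UHRF1 gave −0.52. In LNCaP SLIT2 was at or under 0.604 CPM and CDKN2B at or under 2.05 CPM in every library.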

How the results depend on the processing

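The number of members called ranged from 4 to 7 in LNCaP (6 as reported), 6 to 7 in PC3 (7), 3 to 4 for the difference between the lines (3), and was 7 in every alternative between the controls. Leaving out single libraries gave 4 to 6, 6 to 7, 3 to 4 and 7. With replicate number as a block the counts were 6, 7, 3 and 7, and no member's call changed. Deviations of same-numbered libraries from their group means were hardly correlated (0.02 in each line), which cannot tell whether those libraries were prepared together. Of 522 member values under alternatives, 477 kept direction and call, 12 lost the call, 13 gained one and 20 changed sign, none of them called. CBX2 in LNCaP (−0.02) became 0.11 with total counts, 0.051 without a filter, 0.037 with halved counts and 0.024 with DESeq2, and ran from −0.0102 to 0.065 without single libraries. The SUZ12 difference between the lines became 0.0043 without a filter and ran from −0.17 to 0.077 without single libraries, and that of CBX8 from −0.048 to 0.13. Between the controls, EZH2 became 0.042 without a filter, 0.025 with halved counts and 0.034 with DESeq2, and ran from −0.053 to 0.072 without single libraries, as SUZ12 did from −0.12 to 0.049. The cause was not tested. Member counts were 386 or more, and the LNCaP SE was 0.12 for CBX7, the member with the fewest counts there, against 0.04 for CBX6, with the most. Changes as small as those of CBX8 may not be detectable for every gene with 2 libraries per group, and the part of depth was not tested.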
